A study of Homo sapiens and Mus musculus with 13 samples.

Results

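NT2 cells are a human embryonal carcinoma line, and their RNA:DNA hybrids were mapped by sequencing the RNA strand (DRIPc-seq) and by sequencing the DNA (DRIP-seq). The regions described here are the DRIPc-seq peaks that no DRIP-seq list backed. They were chosen by their length and position in the deposited lists, as the NT2 DRIPc-seq peaks shorter than 10 kb on chromosomes 1 to 22 that did not touch, by even 1 bp and on either strand, a peak of 4 DRIP-seq lists. There were 31927 of them among 88310 NT2 DRIPc-seq peaks. Of the whole list, 3021 peaks lay outside chromosomes 1 to 22 and 2350 were 10 kb or longer, which left 82939 eligible peaks. The peaks without DRIP made up 38.5% of these (95% exact Clopper-Pearson interval 38.2 to 38.8%), and the other 51012 touched at least 1 DRIP-seq peak.

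The DRIPc-seq list stands for 2 NT2 samples whose genomic DNA was fragmented with HindIII, EcoRI, BsrGI, XbaI and SspI, an enzyme mix called digest A here. The 4 DRIP-seq lists came from 1 library each: NT2 with digest A, NT2 with digest B (BamHI, NcoI, ApaL1, NheI and PvuII), NT2 with RNase A and digest A, and K562, a human leukaemia line, with digest A. A further NT2 list, made with RNase H and digest A, took no part in the choice of regions. The labels name no other treatment, and neither line was checked against markers, since peak lists hold no expression values.

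An R-loop forms when an RNA pairs with the DNA strand it was copied from and displaces the other strand. Such hybrids are known at gene starts, along transcribed gene bodies and at gene ends. In DRIP-seq an antibody recovers hybrids on restriction fragments and the DNA is read, so the strand is lost and the fragment limits where an edge can fall. In DRIPc-seq the recovered RNA is read, so each peak lies on the strand of the RNA and can be narrower than the restriction fragment. RNase A cuts single-stranded RNA. RNase H removes RNA paired with DNA and is the usual negative control for hybrids.

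All positions are on hg19, counted from 1. No annotation or sequence of that build was used, so regions are given without gene names or bases. The lists held between 8998 and 88310 peaks, without heights or read counts, so the depth of each library is unknown and a missing peak is a region not called there. With 1 list for each condition no p-value was computed. Intervals on shares cover counting error only, and neighbouring peaks are not independent, so the intervals are too narrow.

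The peaks without DRIP were short. Their median length was 1152 bp (quartiles 553 and 2339 bp), against 2078 bp (1056 and 3688 bp) for the peaks that touched DRIP. Peaks under 1 kb made up 44.8% of those without DRIP and 23.5% of those touching DRIP, and peaks of 5 kb or longer made up 6.38% and 13.8%. The regions without DRIP covered 55.9 Mb in all, and those touching DRIP covered 129.7 Mb. A longer peak is more easily touched, so length is tied to the choice of regions and these values describe it.

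The share without DRIP was lower in each longer band. It was 61.4% (59.6 to 63.1%) of peaks under 250 bp, 50.3% (49.5 to 51.2%) of those of 500 to 1000 bp, 30.7% (29.9 to 31.5%) of those of 2 to 3 kb and 22.4% (21.6 to 23.3%) of those of 5 to 10 kb. Among the peaks of 10 kb or longer, which were not eligible, 438 of 2350 (18.6%) touched no DRIP peak. Long DRIPc peaks without DRIP therefore continued past the limit: 131 of the regions were 9 kb or longer, and 86 of the 438 were under 11 kb. The 5 longest regions had 9961 to 9997 bp, and the shortest excluded peak without DRIP had 10005 bp. The longest was on the minus strand of chromosome 7 from 126461423 to 126471419, with the nearest DRIP peak 119842 bp away. The next was on the plus strand of chromosome 3 from 24969299 to 24979290, 96004 bp from the nearest DRIP peak.

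**Figure D1:**
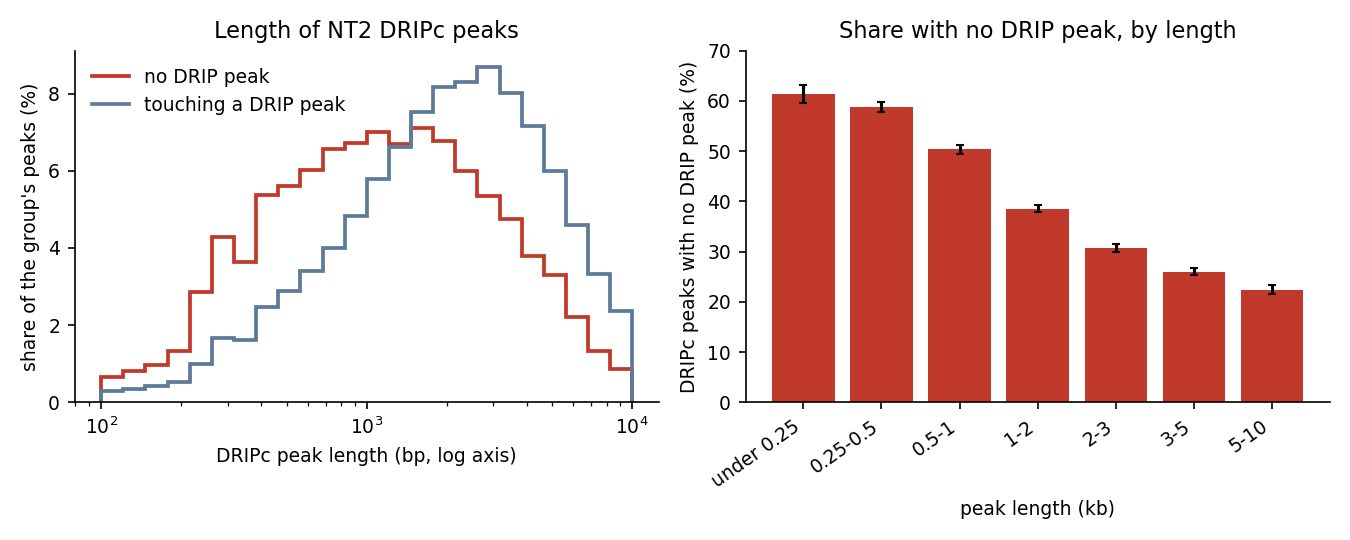
Left, share of each group's peaks (%) by DRIPc peak length (bp, log axis), for the 31927 peaks without DRIP and the 51012 touching DRIP. Right, share of eligible DRIPc peaks without DRIP (%) by length band in kb, with exact 95% intervals; it was 61.4% in the shortest band and 22.4% in the longest.

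Length also followed the number of DRIP lists touched. The median was 1152 bp with none of the 4 lists, 1652 bp with 1 list, 1993 bp with 2, 2167 bp with 3 and 2350 bp with all 4. Digest B decided more regions than any other list. Of the 11712 eligible peaks that touched a single list, 7528 touched digest B alone, against 1794 for RNase A alone, 1584 for digest A alone and 806 for K562 alone. Digest B had the longest DRIP peaks, with a median of 2841 bp and 194.8 Mb covered, against 118.4 to 149.8 Mb for the other 3 lists. Without the digest B list, 47.6% of eligible peaks would have had no DRIP peak.

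At the edge of the rule, the 1 bp limit separated close neighbours. A DRIP peak lay no more than 100 bp from 621 of the regions and no more than 10 bp from 90, and 10 regions abutted one with no base between. On the other side, 641 eligible peaks were covered by DRIP for no more than 100 bp and 70 for no more than 10 bp. Most peaks on that side were well inside DRIP, since 31604 of the 51012 were wholly covered. One of the 10 abutting regions was on the minus strand of chromosome 3 from 47091103 to 47091979, with a DRIP peak at its upstream edge and another 516 bp downstream.

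The regions lay on both strands in nearly the proportion of the rest of the list. The plus strand held 16843 and the minus strand 15084, so that 52.8% (52.2 to 53.3%) were on the plus strand, against 52.1% (51.7 to 52.5%) of the peaks touching DRIP. The difference was smaller than the width of the intervals, which overlapped.

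Overlap of the strands separated the groups. The rule ignored strand, so whether a DRIPc peak is crossed by one of the other strand was not fixed by it. Of the regions without DRIP, 319 (0.999%, interval 0.893 to 1.11%) touched a DRIPc peak of the opposite strand, against 7437 (14.6%, 14.3 to 14.9%) of those touching DRIP, and 9.35% of all eligible peaks. The gap held in every length band. In peaks of 250 to 500 bp the shares were 1.60% without DRIP and 18.5% with it, in those of 1 to 2 kb they were 0.628% and 11.9%, and in those of 5 to 10 kb they were 1.13% and 19.96%. The share was 2.70% for peaks touching 1 DRIP list and 26.8% for peaks touching all 4.

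The same comparison was made within classes of DRIP cover, which do not match the density of DRIPc peaks. Over all classes, the median gap to the nearest DRIPc peak was 1706 bp for regions without DRIP and 609 bp for peaks touching DRIP. The part of this in the overlap of the strands was not tested. Bins of 1 Mb were ordered by the length that the 4 DRIP lists covered in them and divided into 4 classes. In the class with the most DRIP cover, 0.862% (0.666 to 1.10%) of the regions without DRIP touched the other strand, against 17.0% (16.6 to 17.5%) of the peaks touching DRIP. In the class with the least, the shares were 0.493% (0.255 to 0.860%) and 13.0% (8.83 to 18.3%, 215 peaks). In the 2 classes between, which hold most of the regions, the shares lay closer, at 0.906% (0.728 to 1.12%) and 9.96% (9.12 to 10.8%) in the lower class, and 1.26% (1.07 to 1.47%) and 10.2% (9.72 to 10.8%) in the higher. Of the 319 regions, 217 were crossed by another region without DRIP, 74 by a shorter peak touching DRIP and 35 by a peak of 10 kb or longer.

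Neighbouring regions were mostly on the same strand. Among 20524 pairs of DRIPc peaks next to each other along the chromosome and both without DRIP, 91.1% (90.7 to 91.5%) shared a strand. In pairs in which both touched DRIP the share was 76.0% (75.6 to 76.5%) of 39050, and in mixed pairs 84.3% (83.8 to 84.8%) of 21152. These counts include overlapping pairs, none of which shared a strand: 108 without DRIP, 65 mixed and 3382 touching DRIP. Part of the difference between the shares therefore restates the overlap of the strands given above. At gaps of 0 to 1 kb, without overlap, the shares were 99.1% without DRIP and 93.6% touching DRIP. The pairs without DRIP were also farther apart, with a median gap of 4752 bp against 1781 bp for pairs touching DRIP.

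The shared strand reached far. At gaps of 1 to 5 kb, 97.1% (96.6 to 97.5%) of pairs without DRIP were on one strand, against 81.3% (80.4 to 82.1%) of pairs touching DRIP. At gaps of 20 to 100 kb the shares were 87.2% (86.1 to 88.2%) and 67.7% (66.3 to 69.0%). At 100 kb or more they were 52.7% (50.03 to 55.3%) and 53.8% (51.0 to 56.7%), close to an even split in both groups. Some close pairs nearly abutted. In 1150 pairs without DRIP (5.60%) the gap was no more than 10 bp, and in pairs touching DRIP the number was 4186 (10.7%). After peaks of a strand within 1 kb of each other were merged, the share of pairs without DRIP on one strand was 88.1%.

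**Figure D2:**
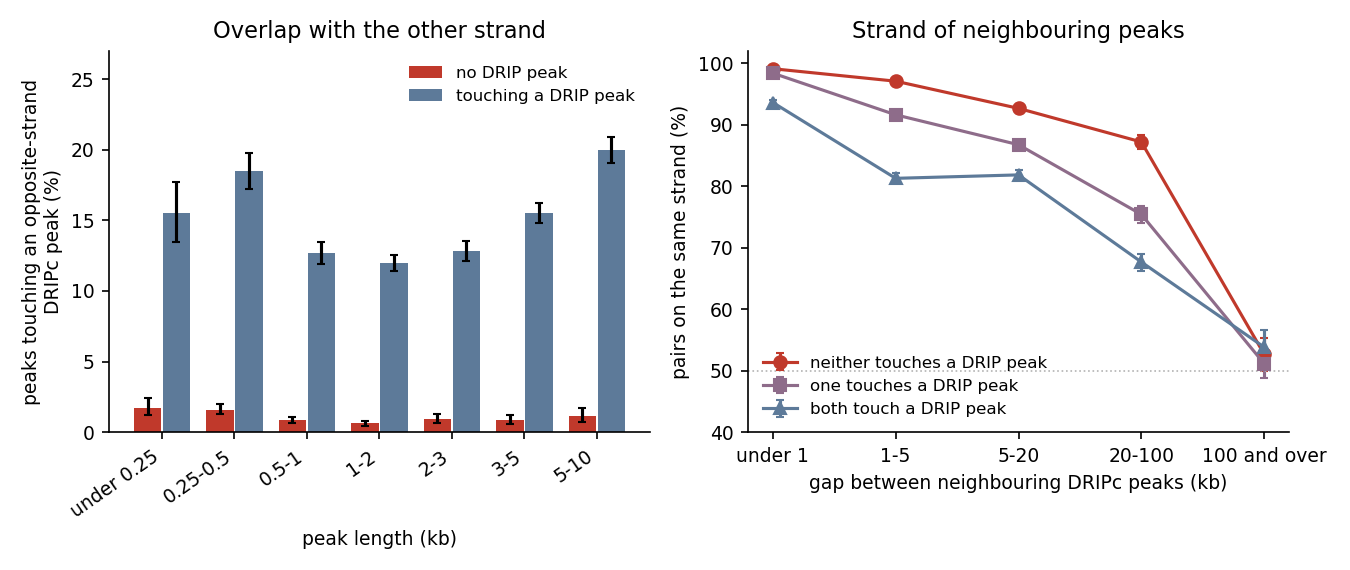
Left, share of DRIPc peaks touching a peak of the opposite strand (%) by length band in kb, without DRIP and touching DRIP. Right, share of neighbouring DRIPc peaks on the same strand (%) by the gap between them in kb, for pairs in which neither, one or both touch DRIP; bars are exact 95% intervals, the dotted line marks 50%, and at 20 to 100 kb the pairs without DRIP stand at 87.2% and those touching DRIP at 67.7%.

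Where neighbours without DRIP did lie on opposite strands, their order depended on the gap. A pair is divergent where the minus strand peak lies to the left, so that the RNAs run away from each other, and convergent where they run towards each other. At gaps of 1 to 5 kb, 93 of 166 such pairs were divergent (56.0%, 48.1 to 63.7%), against 63.4% (61.0 to 65.7%) of 1676 pairs touching DRIP. At 20 to 100 kb, 169 of 471 pairs without DRIP were divergent (35.9%, 31.5 to 40.4%), so that most were convergent. In pairs touching DRIP at those gaps the share was 51.0% (48.4 to 53.7%) of 1436, and its interval did not overlap that of the pairs without DRIP.

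The regions formed long runs on a strand. A run here is an unbroken row of DRIPc peaks of one strand, of any length and with or without DRIP, with gaps under 100 kb. Of the regions without DRIP, 82.4% stood in a run that also held peaks touching DRIP, 11.0% in a run with no such peak and 6.61% alone. Of the peaks touching DRIP, 10.2% stood alone. Runs with at least 5 regions without DRIP numbered 1915, held 67.7% of all regions and had a median span of 183.5 kb. With gaps under 20 kb in place of 100 kb, such runs held 40.2% of the regions. A matching share for peaks touching DRIP is not given here. The run around a peak had a median of 15 DRIPc peaks for the regions and 9 for peaks touching DRIP. With gaps under 20 kb these medians were 6 and 5.

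The kinds of run differed in length and distance. Regions that stood alone had a median length of 1400 bp and lay 31910 bp from the nearest DRIP peak in the median. Those in runs without a DRIP-touching peak had medians of 1306 bp and 76666 bp, and those in mixed runs had medians of 1127 bp and 6475 bp. The opposite strand crossed 6.87% of the regions that stood alone and 0.460% of those in mixed runs, a difference that follows in part from the definition, since a crossing peak ends a run.

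The run with the most regions was on the minus strand of chromosome 3 from 60037090 to 61235860. It spanned 1198.8 kb with 80 DRIPc peaks, of which 74 had no DRIP and 6 touched DRIP. The regions in it were 187 to 6425 bp long, and the peaks together filled 13.8% of the span. The next was on the plus strand of chromosome 7 from 69064247 to 70257108, with 71 regions without DRIP among 98 peaks over 1192.9 kb. In this run 26 peaks touched DRIP.

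A run on the minus strand of chromosome 3 from 114034373 to 114865055 held almost no DRIP. Of its 72 peaks over 830.7 kb, 69 were regions without DRIP, 2 were longer peaks without DRIP and 1 touched DRIP. It also contained the longest unbroken row of regions without DRIP, 53 from 114100346 to 114775964 with a median length of 1799 bp. The other two runs of the 5 with the most regions were both on plus strands. The run on chromosome 7 from 3349441 to 4314696 held 62 regions among 88 peaks, and that on chromosome 14 from 68325103 to 69169916 held 61 among 69. Unbroken rows of at least 10 regions numbered 352 and held 5313 regions. No other DRIPc peak lies within such a row, but a DRIP peak that touches no DRIPc peak can.

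The share without DRIP differed by position within a run. In the 4333 runs of 6 or more DRIPc peaks, counted in the direction of the RNA, 24.4% (23.1 to 25.7%) of eligible first peaks had no DRIP. The share was 34.1% (32.6 to 35.5%) for the second peak and 50.5% (49.9985 to 51.08%) in the middle, past the third peak from either end. The last peak had no DRIP in 36.1% (34.7 to 37.6%) of cases. Long runs give most of the middle peaks, so the positions were also compared among runs of like size, in bands set after these values were seen. In runs of 6 to 9 peaks the share was 22.2% (20.3 to 24.2%) at the first peak, 36.7% (34.7 to 38.7%) in the middle and 32.3% (30.1 to 34.5%) at the last. In runs of 10 to 19 peaks it was 25.5%, 43.7% and 37.6%, and in runs of 20 or more it was 27.2% (24.1 to 30.5%), 56.6% (55.9 to 57.3%) and 42.2% (38.6 to 45.8%). The first peak was thus lower than the last, and the last lower than the middle, in each band of run size, with the smallest gap between last and middle in the shortest runs. The 3 downstream positions were close to each other over all these runs, at 38.4%, 36.1% and 36.1%. The first peak was below the last on each strand, with 23.7% at the upstream and 34.9% at the downstream end on plus, and 25.2% and 37.4% on minus. With gaps under 20 kb the upstream end had 31.9% (30.5 to 33.4%), the middle 45.4% and the downstream end 39.4% (37.8 to 41.0%). The regions themselves had a median of 1086 bp at the upstream end, 1174 bp in the middle and 1059 bp at the downstream end. A run ends where a DRIPc peak of the other strand comes next. The other strand crossed 14.6% of peaks touching DRIP and 0.999% of regions, so the ends and the middle differ in part by definition. The size of that part was not tested.

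**Figure D3:**
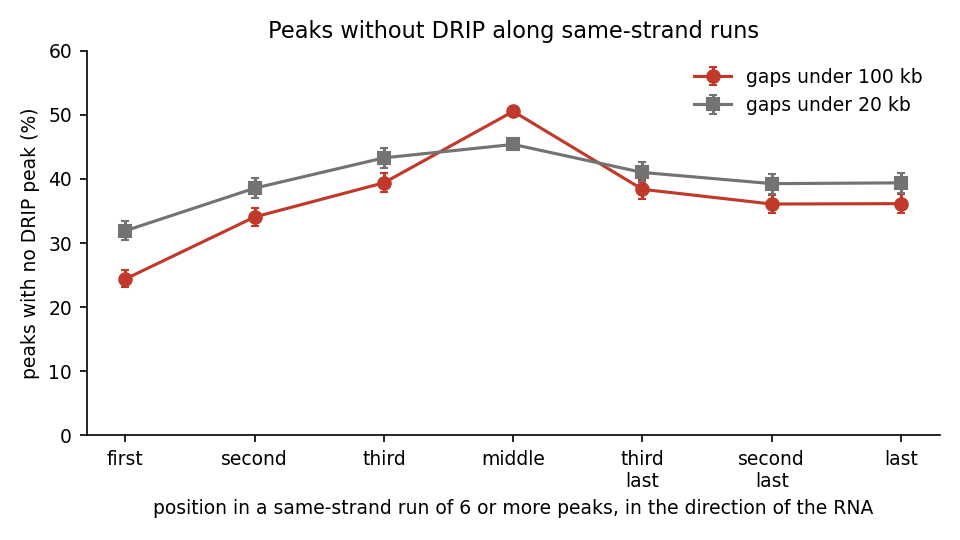
Share of eligible DRIPc peaks without DRIP (%) by position in same-strand runs of 6 or more peaks, ordered in the direction of the RNA, with exact 95% intervals. With gaps under 100 kb the share was 24.4% at the first peak, 50.5% in the middle and 36.1% at the last peak, where the middle draws mostly on long runs; with gaps under 20 kb the ends and the middle lie closer together.

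The nearest DRIP peak was within 20 kb of most regions. The median distance to a peak of any of the 4 lists was 8488 bp (quartiles 2141 and 29707 bp). It was under 1 kb for 15.2% of the regions, 1 to 5 kb for 24.1%, 5 to 20 kb for 28.5%, 20 to 100 kb for 21.8% and 100 kb or more for 10.5%. Regions farther from DRIP were slightly longer, with a median of 1066 bp within 1 kb and 1460 bp at 100 kb or more. By list, the median distance was 14649 bp to digest B, 20968 bp to digest A, 30990 bp to RNase A and 81568 bp to K562, in the order of the length each list covers except for RNase A and digest A.

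The farthest region was on the plus strand of chromosome 13 from 85695934 to 85703000 (7067 bp), with the nearest DRIP peak 2619822 bp downstream. The next were on the minus strand of chromosome 14 from 43437965 to 43442090, 1924004 bp from DRIP, and on the plus strand of chromosome 4 from 59944354 to 59948819, 1922335 bp from DRIP.

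The nearest DRIP peak lay upstream of the region, on the side the RNA comes from, more often than downstream. This was so for 17834 of 31919 regions with a DRIP peak on each side at unequal distances (55.9%, 55.3 to 56.4%). The rule fixed that no DRIP peak touches the region, but not the side. The median distance was 16418 bp to the next DRIP peak upstream and 21909 bp to the next downstream. Plus strand regions gave 56.1% (55.3 to 56.8%) and minus strand regions 55.6% (54.8 to 56.4%). The share was above 50% on 22 of 22 chromosomes, between 52.3% and 60.8%, and between 54.7% and 58.0% in the 5 bands of distance.

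Regions of a row can share their DRIP neighbours, so each unbroken row was also counted once. Rows were broken by other DRIPc peaks, a change of strand or a gap of 100 kb, not by DRIP peaks. Regions of a row with a DRIP peak inside it need not share their neighbours. Then 7790 of 13949 rows (55.8%, 55.0 to 56.7%) had the nearer DRIP peak upstream. Rows of 10 or more regions gave 61.6% (56.3 to 66.8%) of 352, with medians of 14307 bp upstream and 27210 bp downstream, and single regions gave 55.2% (54.1 to 56.3%).

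The side differed between lists. The share upstream was 57.1% for digest B, 57.0% for digest A and 55.9% (55.4 to 56.5%) for RNase A. It was 52.3% (51.7 to 52.8%) for K562, below all of the NT2 lists used in the rule. For the RNase H list it was 48.3% (47.8 to 48.9%). These lists differ in how densely they cover the genome, and the part of that in the difference was not tested.

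**Figure D4:**
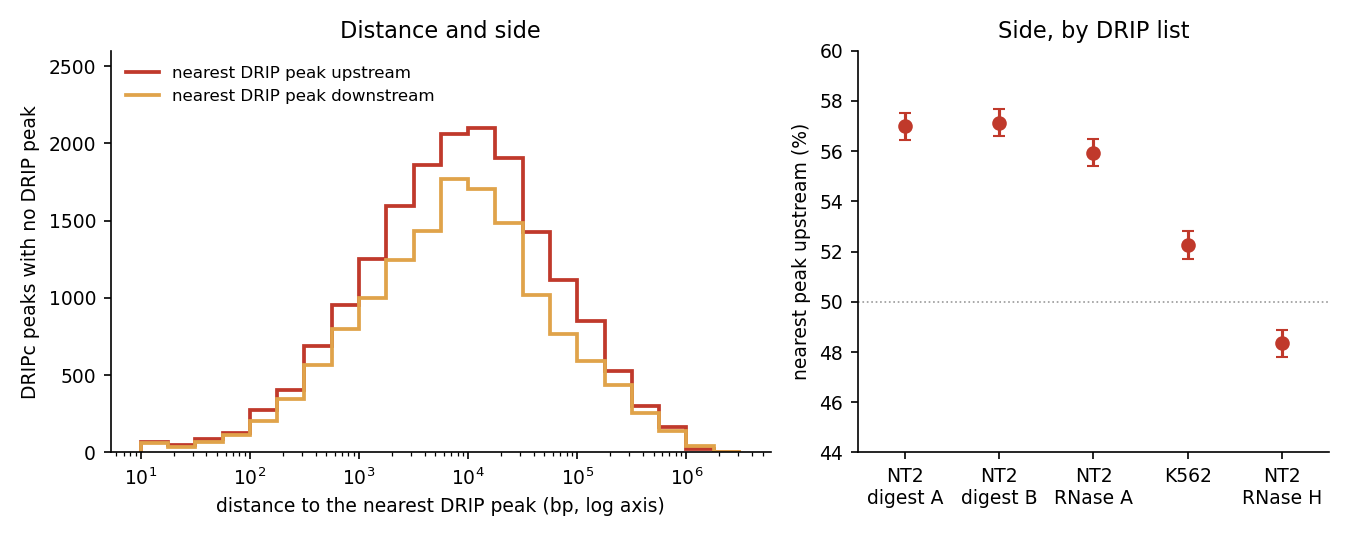
Left, number of DRIPc peaks without DRIP by distance to the nearest DRIP peak (bp, log axis; distances under 10 bp are drawn at 10 bp), separately where that peak lies upstream or downstream of the RNA. Right, share with the nearest peak upstream (%) for each list, with exact 95% intervals and a dotted line at 50%; it was 57.0% for NT2 digest A, 52.3% for K562 and 48.3% for NT2 RNase H.

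Few of the regions touched a peak of the RNase H list. Of the regions without DRIP, 56 (0.175%, 0.133 to 0.228%) touched an RNase H peak, against 1933 (3.79%, 3.63 to 3.96%) of the peaks touching DRIP, and 2.40% of all eligible peaks. In each length band the share was at most 0.393% without DRIP and at least 3.19% with DRIP. The RNase H list is not independent of the rule: 69.9% of its 8710 autosomal peaks touched one of the 4 DRIP lists, and the rule keeps the regions clear of those lists. The gap between the groups is therefore tied to the choice of regions, and how much of it the rule sets was not tested. Of the 2624 RNase H peaks that touched none of the 4 lists, 46 (1.75%, 1.29 to 2.33%) touched a region without DRIP. No baseline is given here for this share, so whether it is high or low cannot be told. Without the RNase A list in the rule, 0.347% of the regions touched an RNase H peak.

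The 56 regions were spread over 20 chromosomes, with 28 on each strand, a median length of 1495 bp and 10 standing alone. The longest were on plus strands. One lay on chromosome 6 from 94186376 to 94196328 (9953 bp), with the nearest DRIP peak 53603 bp upstream. Another lay on chromosome 3 from 77337869 to 77347615 (9747 bp), 62439 bp from the nearest DRIP peak, which was downstream. Whether the signal at these regions came from hybrids was not tested.

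By chromosome, the share of eligible peaks without DRIP ran from 8.85% (7.81 to 9.98%) on chromosome 19 to 56.9% (54.4 to 59.5%) on chromosome 18. Chromosome 19 had 33.9% of its length covered by the 4 DRIP lists, and chromosome 18 had 3.66%. Length ran from position 1 to the last listed peak of a chromosome, and no gap in the assembly was taken out. Chromosomes 4 and 13 followed chromosome 18 with 54.3% and 54.1%, and chromosomes 22 and 17 followed chromosome 19 with 18.1% and 18.2%. Over the 22 autosomes the share and the DRIP cover had a Spearman rho of -0.92, but the rule ties the share to the cover, since the same 4 lists define both.

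The number of regions for each megabase was related to DRIP cover less closely, with a Spearman rho of -0.38 over the 22 autosomes, a description. Lengths were taken as above, so values are too low where a chromosome has long gaps in the assembly. The number for each megabase was 14.14 on chromosome 6 and 14.05 on chromosome 3, 10.8 on chromosome 18, 7.51 on chromosome 13 and 4.08 on chromosome 19. Peaks touching DRIP numbered 42.0 for each megabase on chromosome 19 and 6.38 on chromosome 13. Regions on chromosome 19 were shorter, with a median of 763 bp, than those on chromosome 13, with 1336 bp. The rule ties this length to DRIP cover too, since a longer peak is more easily touched.

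**Figure D5:**
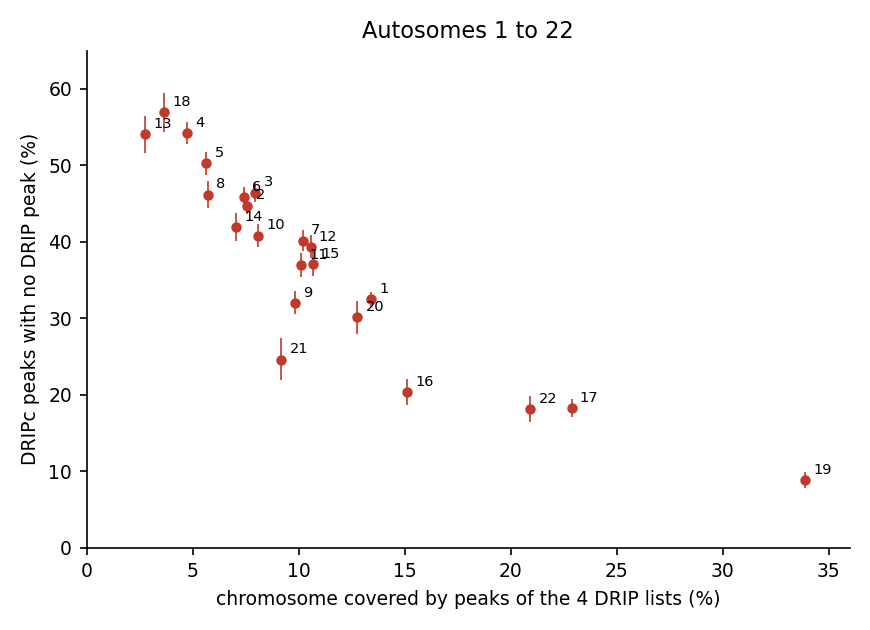
Each point is a chromosome, labelled with its number. The share of eligible DRIPc peaks without DRIP (%, with exact 95% interval) is plotted against the share of the chromosome covered by the 4 DRIP lists (%); chromosome 19 stands at 8.85% and chromosome 18 at 56.9%.

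When the 1 Mb bins of all autosomes were ordered together, the regions were most numerous at intermediate DRIP cover. The 724 bins of 1 Mb with the least DRIP held 3.36 regions each on average, and 91.9% of their eligible peaks had no DRIP. No bin was removed for gaps in the assembly, and a bin that can hold no peak falls in this class and lowers its average. Of all 2894 bins, 441 held no region. The next classes held 13.4 and 16.9 regions a bin, with shares of 67.1% and 47.8%. The class with the most DRIP held 10.4 regions a bin and a share of 18.7%. Peaks touching DRIP numbered 0.297 a bin in the lowest class and 45.1 in the highest. The regions were also shorter with more DRIP around them, with a median of 1522 bp in the lowest class and 914 bp in the highest. Peaks touching DRIP had medians of 1993 bp in the lowest class, 2544 and 2335 bp in the next classes and 1927 bp in the highest. The rule ties the length of the regions to DRIP cover, since a longer peak is more easily touched where DRIP is dense.

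Some megabases held regions almost entirely on a single strand. The bin with the most was at 54 to 55 Mb of chromosome 3, with 73 regions among 99 eligible peaks, 72 of them on the plus strand. At 114 to 115 Mb of chromosome 3 there were 69 regions among 70 eligible peaks, all 69 on the minus strand, filling 17.4% of the bin where DRIP covered 3.32 kb. The bin at 168 to 169 Mb of chromosome 2 was mixed, with 51 regions on plus and 15 on minus. The bin at 205 to 206 Mb of chromosome 2 had 63 of 64 on plus, and that at 61 to 62 Mb of chromosome 15 had 60 of 61 on minus.

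This one-sidedness was more common than among peaks touching DRIP. Of the 548 bins with at least 20 regions without DRIP, 226 (41.2%) had at least 90% of them on one strand. Of the 1016 bins with at least 20 peaks touching DRIP, 82 (8.07%) did. These sets of bins were chosen separately and were not matched for DRIP cover or for the number of peaks in a bin. A share of 90% on one strand is harder to reach with more peaks in a bin. The median share of the main strand was 84.9% in bins of regions without DRIP and 65% in bins of peaks touching DRIP. The 289 bins richest in regions held 32.1% of them, and the same number of bins richest in peaks touching DRIP held 35.1% of those. Among the 2048 bins with at least 10 eligible peaks, 31 held only regions without DRIP and 32 held none.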

How the data were processed

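Positions of peaks in bp are all that the authors deposited in these lists, without height, score or p-value, and the NT2 DRIPc-seq list adds a strand. BWA 0.6.1, TopHat2 2.0.5 and Bismark 0.7.7, and hg19 among the builds, are named in the submitters' processing notes without roles. The sources used here do not name the peak caller or its threshold, nor say how the 2 DRIPc-seq samples were combined. Groups follow the sample titles. Overlap (1 bp), gaps, neighbours, runs and bins were computed with Python 3.11.15, numpy 2.4.6, pandas 2.3.3 and scipy 1.17.1, and drawn with matplotlib 3.10.9. Neighbours were taken in order of start among all autosomal DRIPc peaks. Bins took a peak by its midpoint. Bedtools 2.31.1 gave the same 31927 regions, and the interval functions were tested on simulated data. The named regions were drawn from the longest, farthest, nearest and RNase H regions and the richest runs and bins, at most 5 of each kind. The regions, measures and alternatives were chosen with earlier results of these data known.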

Additional observations from a re-analysis of the deposited data

How the results depend on the processing

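Of the alternatives tried, none turned a direction: the regions stayed shorter, less often crossed by the other strand and less often in the RNase H list than peaks touching DRIP, and the nearest DRIP peak stayed upstream in over 50% of cases (peaks with less than 50% covered add no case here, since those that touch DRIP have no side). Values below are those outside the 95% interval of the reported value. The share of eligible peaks without DRIP was 37.9% with no length limit, 40.5% with a limit of 5 kb, 32.6% with no DRIP peak within 1 kb, 49.2% with less than 50% of the peak covered, 39.4% with the longest 50% of each list, 40.8% with peaks merged within 1 kb, and 39.5%, 40.4%, 47.6% and 40.7% without the K562, digest A, digest B and RNase A lists. In the same order of settings, the median length was 1174, 1059, 1173, 1455, 3074 and 1214 bp, and 1180 and 1251 bp without digest A and digest B. The median distance to DRIP was 8127 bp with the 5 kb limit, 12139 bp with no DRIP peak within 1 kb, 4191 bp with less than 50% covered, 21751 bp with the longest 50%, 10843 bp with merged peaks, and 9103, 9320, 9615 and 9842 bp without the K562, digest A, digest B and RNase A lists. Neighbours shared a strand in 92.0% (5 kb limit), 90.6% (less than 50% covered), 88.3% (longest 50%) and 88.1% (merged) of pairs. The other strand crossed 0.824% of regions with no DRIP peak within 1 kb, 1.39% with less than 50% covered, 0.679% with the longest 50% and 1.397% without digest B. The RNase H list touched 0.316% with less than 50% covered, 0.132% with the longest 50% and 0.347% without the RNase A list. The nearest DRIP peak was upstream for 56.6% with the longest 50%. Bins of 5 Mb put 22.2% of regions in the richest 10% of bins, against 32.1% with bins of 1 Mb. Gaps under 20 kb within runs, and the count of each row once, were chosen after seeing the data, and such gaps put 40.2% of regions in runs of at least 5. The cause of these shifts was not tested. Sequence and gene position were not run, for want of a genome and annotation of the build used here. No paired analysis was possible because the 2 DRIPc-seq samples share a list. Depth is unknown, so how it limits each list cannot be given.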
